A study of Mus musculus with 8 samples.

Results

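The neuregulin and ErbB genes described here are 8 of the 34536 gene symbols in the count table: the ligand genes Nrg1, Nrg2, Nrg4 and Hbegf, and the receptor genes Egfr, Erbb2, Erbb3 and Erbb4. They were chosen by symbol, and all 8 were found. Of these, 7 had enough counts to be tested, and Nrg2 did not. The libraries hold RNA of mouse cells sorted by fluorescence from embryoid bodies, which are clumps of differentiating pluripotent stem cells grown in culture. There are 4 libraries labelled endocardial (A, C, E and G) and 4 labelled endothelial (B, D, F and H). The sources used here do not give the sort markers, the stem cell line, any reporter allele or the culture day. Nothing in the labels says that the libraries are separate cultures, so the p-values measure the spread between libraries only, which may be technical.

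Neuregulins and HB-EGF are ligands of the epidermal growth factor family, made as membrane proteins whose outer part is cut off by proteases. They bind receptor tyrosine kinases that work in pairs. ErbB2 has no known ligand of its own and acts as a partner, and ErbB3 binds neuregulins but is a weak kinase, so it signals mainly with ErbB2. In the developing heart, Nrg1 from the endocardium, the inner lining of the heart, reaches ErbB2 and ErbB4 on heart muscle cells, and mice that lack Nrg1, Erbb2 or Erbb4 do not form trabeculae. The title of the series concerns the dependence of heart muscle differentiation on the endocardium, and the comparison asks how these genes differ between cells labelled endocardial and cells labelled endothelial.

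The feature that makes these ligands a family is the EGF-like domain, which holds 6 cysteines that form its disulfide bonds. The coding sequences of this domain are shown for Nrg1, the ligand gene that differed between the groups, and Nrg4, one that was not called. Capitals mark the cysteine codons, which a script found from their spacing in the translated transcript. The sequences are from GENCODE M21 transcripts (mouse build GRCm38), 5′ to 3′, bases 709 to 828 of the Nrg1 coding sequence and 25 to 135 of that of Nrg4. The stretch is 120 bases long in Nrg1 and 111 in Nrg4.
Nrg1: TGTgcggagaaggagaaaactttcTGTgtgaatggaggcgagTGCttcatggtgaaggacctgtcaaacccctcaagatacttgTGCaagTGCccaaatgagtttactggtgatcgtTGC
Nrg4: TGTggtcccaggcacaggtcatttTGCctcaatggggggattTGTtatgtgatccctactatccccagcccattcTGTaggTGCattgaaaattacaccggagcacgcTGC

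Erbb3, the receptor gene called lower in the endocardial libraries, differs from the others in its kinase domain, so this stretch is shown for all 4. It is 87 bases of each coding sequence, starting at base 2227 in Egfr, 2248 in Erbb2, 2206 in Erbb3 and 2239 in Erbb4, and runs from the strand with the lysine that binds ATP into the helix with the residue that holds this lysine in place. Capitals mark the codons of these 2 positions. In Egfr, Erbb2 and Erbb4 the second codon stands for glutamate, and in Erbb3 for histidine.
Egfr: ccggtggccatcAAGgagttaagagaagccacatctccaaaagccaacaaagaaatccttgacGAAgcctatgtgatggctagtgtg
Erbb2: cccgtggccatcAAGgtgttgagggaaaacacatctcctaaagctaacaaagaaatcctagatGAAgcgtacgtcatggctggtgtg
Erbb3: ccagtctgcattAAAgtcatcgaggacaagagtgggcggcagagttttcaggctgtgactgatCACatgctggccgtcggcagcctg
Erbb4: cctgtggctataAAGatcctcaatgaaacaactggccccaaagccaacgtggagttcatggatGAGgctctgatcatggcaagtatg

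Each library had between 6677667 and 11369363 estimated counts. Levels are given as CPM, counts per 1000000 of the TMM-scaled library total, where 3 counts stood for 0.267 to 0.438 CPM. Some libraries stood apart in marker genes. The 16 pan-endothelial markers summed to 1586 to 2013 CPM in the endocardial libraries and to 477 to 925 CPM in the endothelial libraries, and none of them was at 0. The 11 endocardial markers summed to 1239 to 1577 CPM in the endocardial libraries and to 575 to 1122 CPM in the endothelial libraries. Of these 11, Nfatc1, Hapln1 and Plxnd1 were called higher, and the other 8, Gata4, Gata5 and Npr3 among them, were not called, 3 of them with a log2 fold change just below 0. The 10 pluripotency markers summed to 21.4 to 133 CPM in the endocardial libraries, with E highest, and to 136 to 1013 CPM in the endothelial libraries, with F highest. The 10 mesenchyme and mural markers reached 23741 CPM in endothelial library B, against 3738 to 9205 CPM in the other endothelial libraries and 5139 to 8160 CPM in the endocardial ones. Most of the sum in B came from the collagen genes Col1a1, Col1a2 and Col3a1. The 10 blood and macrophage markers summed to 1485 CPM in A and 1698 CPM in B, against 197 to 675 CPM in the other 6 libraries. In such bulk samples, fewer cells of a type and less RNA per cell cannot be told apart.

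By edgeR's quasi-likelihood test with Benjamini-Hochberg adjustment over all 13817 tested genes, 1 member was called higher in the endocardial libraries, Nrg1, and 1 lower, Erbb3. The other 5 tested members were not called. Among all tested genes, 2.58% were called in either direction, 1.42% higher and 1.16% lower. Of the 13817 genes, 2023 had an unadjusted p under 0.05, 7248 had a log2 fold change above 0 and 6569 below 0. The median log2 fold change was -0.28 over the tested members and 0.01 over all tested genes. The 2 calls were sensitive to single libraries, as given with each gene.

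The share of all tested genes called also moved with the setting. It was 6.22% with DESeq2, 7.06% with limma and voom weights, 2.55% with RLE scaling, 2.48% with upper-quartile scaling, 1.59% with no filter on low counts, 2.42% with at least 1 CPM in 4 libraries, 2.64% without robust estimation and 8.71% with libraries of adjacent letters as a block. Leaving out an endocardial library gave 1.34% for A, 1.11% for C, 0.961% for E and 1.08% for G, and leaving out an endothelial library gave 3.27% for B, 0.982% for D, 2.09% for F and 2.32% for H. Without G and H it was 1.05%. Of all tested genes, 9.76% had groups that did not overlap, in either direction, as did Nrg1 and Erbb3 among the 7 tested members.

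**Figure D1:**
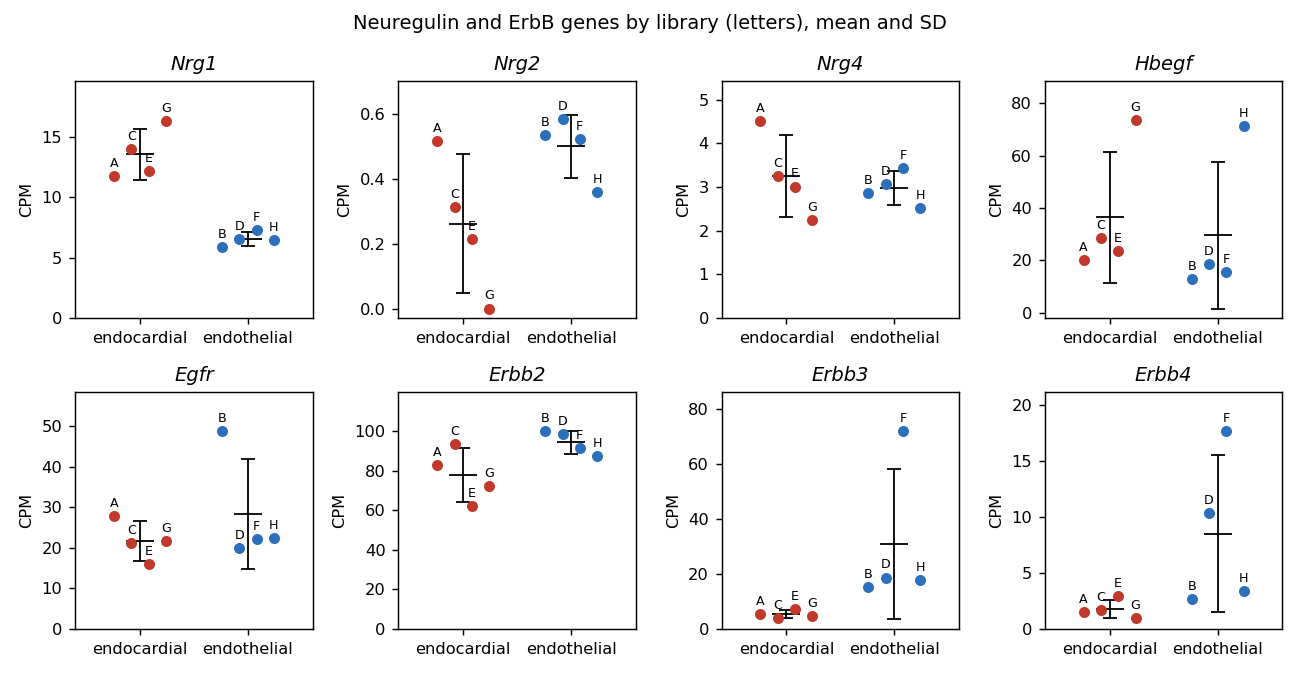
Level of each gene in CPM (vertical axes, from 0) in the endocardial (red, left) and endothelial (blue, right) libraries; dots are libraries with their letters, and the black bar shows the mean and SD over 4 libraries. The endocardial and endothelial dots do not overlap for Nrg1 and Erbb3, while Hbegf is high in G and H, Egfr in B, and Erbb3 and Erbb4 in F.

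Nrg1 (GRCm38, chromosome 8, 31814551 to 32884029, minus strand, protein-coding like the other 7) is the neuregulin that acts on heart muscle. Its level was 11.7 CPM in A, 14.0 in C, 12.2 in E and 16.3 in G, all endocardial, against 5.88 CPM in B, 6.57 in D, 7.30 in F and 6.46 in H, all endothelial. Every endocardial library lay above every endothelial one, with G highest, as did 4.42% of all tested genes. The mean was 13.6 ± 2.10 CPM (endocardial) against 6.55 ± 0.582 CPM (endothelial) (SD, n = 4 each), 2.07-fold higher. The log2 fold change was 1.05 (SE 0.18, 95% interval 0.65 to 1.44, adjusted p = 0.0149 by edgeR). Its adjusted p was 0.0679 without C, 0.0576 without D and 0.0532 without G, so the call rests on each of these libraries, while the log2 fold change stayed between 0.96 and 1.09 over the 8 fits that leave out 1 library.

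Of the 16 pan-endothelial markers, 13 were also called higher in the endocardial libraries and 0 lower. Per 1000 CPM of the 16 pan-endothelial markers in the same library, a scale chosen after the data were seen, Nrg1 was at 6.44 in A, 8.19 in C, 7.66 in E and 8.12 in G. On the same scale it was at 7.75 in B, 8.79 in D, 15.3 in F and 6.98 in H. The groups overlapped on this scale, with means of 7.604 ± 0.812 in the endocardial and 9.71 ± 3.81 in the endothelial libraries (SD, n = 4 each; two-sided exact permutation p = 0.371). Library F, the highest, also had the lowest pan-endothelial sum. The sum leans on Kdr, at 612 CPM (endocardial) against 242 CPM (endothelial), and Tek, at 230 against 208 CPM, the markers with the highest means. Tek was not called (log2 fold change 0.15), while the median over the 16 markers was 2.25, so another weighting of the markers could give another ratio. The part of endothelial content in the Nrg1 difference was not tested beyond this ratio. The 13 cardiomyocyte markers summed to 230 to 464 CPM (endocardial) against 178 to 341 CPM (endothelial). Of the 11 tested, 0 were called, 5 had an unadjusted p under 0.05, 10 had a log2 fold change above 0 and the median was 0.72, and their part in the Nrg1 difference was not tested. The exons of Nrg1 overlap those of Gm26578 on the other strand by 482 bases, and whether counting used strand is not stated. The 5 genes whose log2 CPM followed that of Nrg1 most closely over the 8 libraries were Myzap, Gad2, Klhl3, Acer2 and Rasip1, with Pearson r of 0.98, 0.98, 0.97, 0.97 and 0.97, a description over libraries that fall into the same 2 groups.

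The other ligand genes were not called. Nrg4 (chromosome 9, 55220222 to 55326844), a ligand of ErbB4, was at 4.52 CPM in A, 3.24 in C, 3.01 in E and 2.25 in G, against 2.85 CPM in B, 3.07 in D, 3.44 in F and 2.51 in H. The endocardial range enclosed the endothelial one. The log2 fold change was 0.13 (SE 0.29, 95% interval -0.51 to 0.77, edgeR adjusted p = 0.897), and -0.08 without A. Libraries A and B were both high in blood and macrophage markers, and the part of such cells in the Nrg4 levels was not tested. The Nrg4 values rest on 112 counts in the endocardial and 107 in the endothelial libraries, and the exons of Nrg4 overlap those of Fbxo22 and Gm15625 on the other strand by 368 and 177 bases. Nrg2 (chromosome 18, 36017652 to 36197380), a neuregulin best known from neurons, had 4, 3, 2 and 0 counts in A, C, E and G and 6, 4, 5 and 3 counts in B, D, F and H. It had 9 counts in all in the endocardial and 18 in the endothelial libraries and was too low to test. The count of 0 in G allows up to 0.374 CPM, for counting error only.

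Hbegf (chromosome 18, 36504927 to 36515805), which codes for the heparin-binding ligand of EGFR and ErbB4, varied more between libraries than between groups. It was at 20.0 CPM in A, 28.6 in C, 23.6 in E and 73.7 in G, against 12.8 CPM in B, 18.5 in D, 15.4 in F and 71.4 in H. Libraries G and H, 1 of each group, stood far above the other 6. The log2 fold change was 0.31 (SE 0.62, 95% interval -1.09 to 1.70, edgeR adjusted p = 0.886), and it was -0.27 without G and 1.22 without H. Libraries A, C, E, B, D and F alone, a selection made after the values were seen, were also fitted. In that fit the log2 fold change was 0.63 (SE 0.21) and the adjusted p = 0.226.

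The same 2 libraries were high in the summed level of genes that respond to ERK. ERK is the kinase downstream of EGF family receptors and of many other signals. The 21 ERK-responsive genes summed to 950 CPM in A, 1264 in C, 890 in E and 2877 in G, against 959 in B, 1278 in D, 752 in F and 2731 in H. Egr1, Fos and Jun, immediate early genes named after their values were seen, show the same split. Egr1 was at 617 CPM in G, against 94.0 to 211.6 CPM in the other endocardial libraries, and at 697 CPM in H, against 79.4 to 242.5 CPM in the other endothelial libraries. Fos was at 457 CPM in G and 472 CPM in H, and Jun at 721 CPM in G and 648 CPM in H. Egr1, Fos and Jun made up much of the sums in G and H. Within their group, Etv1, Etv4, Etv5 and Ccnd1 were not highest in G or in H, and Spry1 was highest in H but not in G. The other genes of the list were highest in G among the endocardial and in H among the endothelial libraries. The part of these signals in the Hbegf values was not tested.

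Of the receptors, Erbb3 differed most. Erbb3 (chromosome 10, 128567523 to 128589652), a receptor for Nrg1 and Nrg2 known from epithelium and neural crest, was at 5.55 CPM in A, 4.08 in C, 7.31 in E and 4.74 in G. In the endothelial libraries it was at 15.2 CPM in B, 18.7 in D, 71.9 in F and 17.7 in H. All endocardial libraries were below all endothelial ones, as held for 5.33% of all tested genes, and F stood far above the rest. The mean was 5.42 ± 1.40 CPM (endocardial) against 30.9 ± 27.4 CPM (endothelial) (SD, n = 4 each), and the log2 fold change was -2.51 (SE 0.53, 95% interval -3.70 to -1.32, edgeR adjusted p = 0.0424). Without F it was -1.68 (SE 0.22, adjusted p = 0.00503), a smaller difference with less spread. The call was also kept without B (adjusted p = 0.0260) or H (0.0490) and lost without A (0.122), C (0.125), D (0.0605), E (0.0927) or G (0.123), and it was lost when no filter on low counts was used (0.108).

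Erbb4 (chromosome 1, 68032186 to 69108059), the neuregulin receptor that has both a ligand site and an active kinase, was low. It was at 1.55 CPM in A, 1.67 in C, 2.90 in E and 0.998 in G, against 2.67 CPM in B, 10.4 in D, 17.6 in F and 3.35 in H. The groups overlapped, since E lay above B, and 3 of the 4 endocardial libraries lay below all endothelial ones. The log2 fold change was -2.23 (SE 0.62, 95% interval -3.63 to -0.84), and the edgeR adjusted p = 0.102 missed the threshold. DESeq2 called it (adjusted p = 0.00708), as did edgeR with libraries of adjacent letters as a block (-2.08, adjusted p = 0.00866), a pairing that the labels do not state, and edgeR without B (0.0422). The levels rest on 63 counts in the endocardial and 298 counts in the endothelial libraries.

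Erbb3 and Erbb4 were both highest in F, the library with the highest pluripotency sum, and among the endocardial libraries both were highest in E, which had the highest pluripotency sum of that group. Pou5f1, the Oct4 gene that defines pluripotent cells, was at 1.81 CPM in A, 1.47 in C, 11.5 in E and 1.497 in G, against 25.3 CPM in B, 24.5 in D, 95.5 in F and 27.4 in H. All 10 pluripotency markers had counts, 2 of them were called lower in the endocardial libraries, and all 10 had a log2 fold change below 0 and an unadjusted p under 0.05, with a median of -3.26. Per 1000 CPM of these markers, a scale chosen after the data were seen, Erbb3 was at 259 in A, 159 in C, 54.9 in E and 209.9 in G, against 112 in B, 90.3 in D, 70.9 in F and 77.1 in H. On this scale the direction turned, with 3 of the 4 endocardial libraries above all endothelial ones and E below them. The marker sums in those 3 were low, at 21.4 CPM in A, 25.7 in C and 22.6 in G, so their ratios are uncertain. Dppa5a had the highest mean of the markers, at 15.6 ± 26.8 CPM (endocardial) against 166 ± 214 CPM (endothelial) (SD, n = 4 each). The mean ratios of Erbb3 were 170.6 ± 87.4 (endocardial) against 87.6 ± 18.1 (endothelial) (SD, n = 4 each; two-sided exact permutation p = 0.143). The 11 epithelial markers, 10 of them tested, summed to 575 to 950 CPM (endocardial) against 733 to 1355 CPM (endothelial). Except in F, these sums are mostly Krt8 and Krt18, with log2 fold changes of 0.02 and 0.12. In F, Krt8 and Krt18 were at their lowest of all libraries, at log2 CPM of 7.45 and 7.08. Cdh1 (7.80), Epcam (6.17), Cldn4 (5.92) and Cldn6 (5.81) were at their highest there. Beside Krt19 at -0.20, the other 7 tested markers had log2 fold changes of -1.43 to -2.34, each with an unadjusted p under 0.05. Of these 7, Cdh1 (-2.12, edgeR adjusted p = 0.0310) and Epcam (-2.20, adjusted p = 0.0465) were called lower, and the list median was -1.90. The 11 neural ectoderm markers, 7 of them tested, summed to 145 to 221 CPM (endocardial) against 192 to 323 CPM (endothelial), with 4 called lower. The 9 neural crest and glia markers went the other way, at 196 to 247 CPM (endocardial) against 91.1 to 166 CPM (endothelial), and Sox10 and Foxd3 were among those at 0 in at least 1 library. The part of other cells in the receptor levels was not tested.

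The genes whose log2 CPM followed Erbb3 most closely over the 8 libraries included Olfr1388, Syp, AC154630.1 and Adarb2, with Pearson r of 0.99 each. Syp codes for a synaptic vesicle protein. The r values are a description over libraries that fall into 2 groups, with Erbb3 in F far above the rest.

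**Figure D2:**
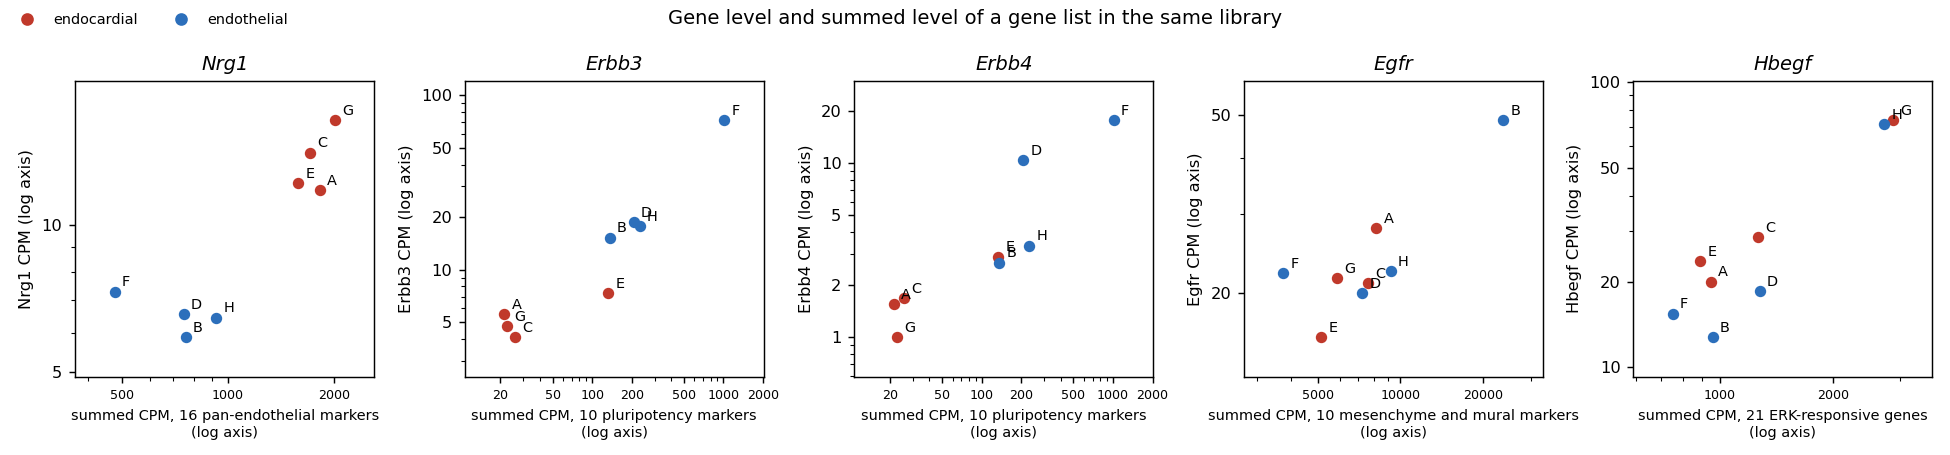
Level of 5 of the genes in CPM (vertical log axes) against the summed CPM of a gene list in the same library (horizontal log axes); red dots are endocardial and blue dots endothelial libraries, with their letters. Erbb3 and Erbb4 are highest in F at a pluripotency sum of 1013 CPM, Egfr in B at a mesenchyme and mural sum of 23741 CPM, and Hbegf in G and H at ERK-responsive sums of 2877 and 2731 CPM.

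Egfr and Erbb2 were not called. Egfr (chromosome 11, 16752203 to 16918158), the receptor of EGF, TGF-alpha and HB-EGF, was at 27.9 CPM in A, 21.04 in C, 15.9 in E and 21.6 in G, against 48.7 CPM in B, 20.0 in D, 22.1 in F and 22.4 in H. Only B stood apart, the library with the highest mesenchyme and mural sum, in which the collagen gene Col1a1 was at 10383 CPM against 1298 to 3938 CPM in the other endothelial libraries. Most of that sum in B came from the collagen genes Col1a1, Col1a2 and Col3a1. Of the other markers, Pdgfra was highest in B, at a log2 CPM of 8.23 against 8.11 in A. Pdgfrb (8.45 in B, 8.52 in A), Acta2 (10.25 in B, 10.28 in H), Tagln, Twist1, Prrx1 and Cspg4 were not highest in B. The log2 fold change of Egfr was -0.40 (SE 0.30, 95% interval -1.06 to 0.26, edgeR adjusted p = 0.623), and 0.01 without B. Whether mesenchymal cells account for the level in B was not tested.

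Erbb2 (chromosome 11, 98412470 to 98437716), the shared partner receptor, had 579 to 1120 counts per library. It was at 82.9 CPM in A, 93.5 in C, 62.3 in E and 72.4 in G, against 99.9 CPM in B, 98.6 in D, 91.2 in F and 87.5 in H. Of the endocardial libraries, 3 lay below all endothelial ones and C lay within their range. The mean was 77.7 ± 13.4 CPM (endocardial) against 94.3 ± 5.91 CPM (endothelial) (SD, n = 4 each). The log2 fold change was -0.28 (SE 0.13, 95% interval -0.57 to 0.01, edgeR adjusted p = 0.371), so a difference as large as that of Nrg1 or Erbb3 lay outside the interval.

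**Figure D3:**
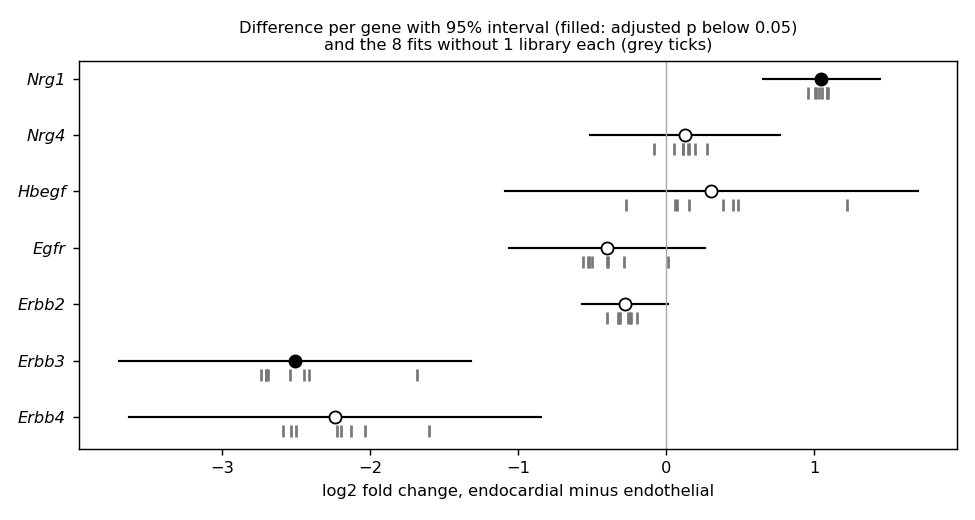
Log2 fold change (horizontal axis, endocardial minus endothelial) of the 7 tested genes; dots are the values over all 8 libraries, filled where the adjusted p was below 0.05, lines are 95% intervals and grey ticks the 8 fits that each leave out 1 library. Nrg1 keeps to 0.96 to 1.09 over these fits, while Hbegf runs from -0.27 to 1.22 and Erbb3 from -2.74 to -1.68.

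To compare levels between genes, CPM were divided by the exon length of each gene in kilobases. On this scale Erbb2 was first in the endocardial libraries, at 14.9 ± 2.58 CPM per kilobase, followed by Hbegf at 7.54 ± 5.19, Egfr at 1.91 ± 0.433, Nrg1 at 1.31 ± 0.203, Erbb3 at 0.901 ± 0.232, Nrg4 at 0.536 ± 0.155, Erbb4 at 0.144 ± 0.0651 and Nrg2 at 0.0833 ± 0.0684 (SD, n = 4). Neighbours in this order had overlapping ranges, except Hbegf and Egfr, and Nrg4 and Erbb4. In the endothelial libraries the order was Erbb2 at 18.1 ± 1.13 CPM per kilobase, Hbegf at 6.11 ± 5.79, Erbb3 at 5.13 ± 4.55, Egfr at 2.50 ± 1.204, Erbb4 at 0.688 ± 0.567, Nrg1 at 0.633 ± 0.0562, Nrg4 at 0.489 ± 0.0642 and Nrg2 at 0.159 ± 0.0312. Here the pairs Hbegf and Erbb3, Erbb3 and Egfr, and Erbb4 and Nrg1 had overlapping ranges, and the other neighbours did not. The transcripts in use were not measured, so the order depends on the length taken, as given in the closing section.

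Within each library, Erbb2 made up most of the receptor transcripts per length. Its share of the 4 receptors was 81.9% in A, 87.0% in C, 80.7% in E and 83.3% in G, against 73.1% in B, 76.8% in D, 53.3% in F and 76.4% in H. Every endocardial library had a larger Erbb2 share than every endothelial one, with means of 83.3% ± 2.74 in the endocardial and 69.9% ± 11.2 in the endothelial libraries (SD, n = 4 each). The share of Erbb3 was 4.75% in A, 3.29% in C, 8.21% in E and 4.73% in G, against 9.67% in B, 12.6% in D, 36.4% in F and 13.4% in H, also without overlap. Both differences had a two-sided exact permutation p = 0.0286, the smallest that 4 against 4 libraries allow, and an adjusted p of 0.0714 over 5 shares. Neither passed the correction, but even full separation of the groups gave no smaller p, so this miss says little. The 4 receptor shares add up to a fixed total, so these differences are not independent. With F left out the Erbb3 share differed by -6.64 instead of -12.8 percentage points.

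The other 3 shares overlapped between the groups. Egfr had 10.7% ± 1.71 of the receptor transcripts in the endocardial and 9.62% ± 4.68 in the endothelial libraries (exact permutation adjusted p = 0.714). Erbb4 had 0.844% ± 0.502 in the endocardial and 2.45% ± 1.70 in the endothelial libraries (exact permutation adjusted p = 0.286). Among the 3 tested ligand genes, Nrg1 had a share of 15.8% ± 4.48 in the endocardial and 12.0% ± 5.53 in the endothelial libraries (SD, n = 4 each; exact permutation adjusted p = 0.464). This share was lowest in G and H, at 9.18% and 3.95%, the libraries with high Hbegf.

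**Figure D4:**
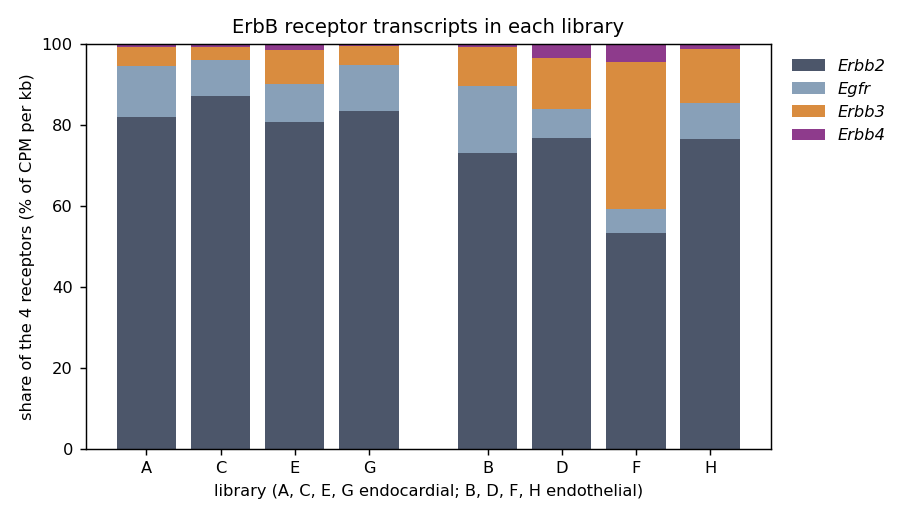
Share of each ErbB receptor gene in the sum of the 4 receptors, in percent of CPM per kilobase (stacked bars from 0 to 100), for the 4 endocardial libraries on the left and the 4 endothelial libraries on the right. Erbb2 takes 80.7% to 87.0% in the endocardial libraries, and library F stands out with 53.3% Erbb2 and 36.4% Erbb3.

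Other genes of the pathway mostly were not called. The lists below stand beside all 13817 tested genes, of which 1.42% were called higher and 1.16% lower. Of the 13817, 2023 had an unadjusted p under 0.05, 7248 had a log2 fold change above 0 and 6569 below 0. Of 7 further EGF family ligand genes, 2 were tested and 0 called. They were Egf, at 4.35 ± 1.29 CPM (endocardial) against 4.70 ± 0.744 CPM (endothelial), and Tgfa, at 6.56 ± 0.983 CPM (endocardial) against 6.61 ± 0.822 CPM (endothelial) (SD, n = 4 each). Areg, Ereg, Epgn, Btc and Nrg3 were too low, with 36 counts of Btc and 1 of Nrg3 over all 8 libraries.

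The proteases that release the ligands, among them Adam10, Adam17 and Adam19, and their regulators were all measured, and 0 of 13 were called (1 at an unadjusted p under 0.05), with a median log2 fold change of 0.07. The smallest p belonged to Adam15, at 57.6 ± 14.0 CPM (endocardial) against 36.5 ± 9.06 CPM (endothelial) (log2 fold change 0.66, edgeR adjusted p = 0.138). Furin, the convertase that trims ADAM precursors, followed with 0.27. DESeq2 called 0 of the 13, and limma with voom weights 1.

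Of 37 tested adaptors and proximal effectors, 3 were called higher by edgeR and 0 lower (4 at an unadjusted p under 0.05), with 29 values above 0, 8 below and a median log2 fold change of 0.12. Stat5a, a transcription factor that ErbB receptors and cytokine receptors can activate, was at 20.7 CPM in A, 19.9 in C, 21.1 in E and 20.8 in G, against 9.01 CPM in B, 8.18 in D, 7.51 in F and 9.45 in H. The libraries of each group lay close together and far from the other group. On the log2 scale it differed by 1.27 (SE 0.14, edgeR adjusted p = 0.00109) and the neighbouring gene Stat5b by 1.02 (SE 0.14, adjusted p = 0.00485), and both kept their call in each of the 8 fits without 1 library. Reads shared by these close copies were assigned by a model, so how the counts split between them is uncertain. Gab2, a docking protein that recruits PI3 kinase, differed by 0.77 on the log2 scale (SE 0.12, edgeR adjusted p = 0.0118) and lost its call without D (0.0527). The adaptor gene Grb7, named after its values were seen, was at 7.03 ± 1.30 CPM (endocardial) against 13.5 ± 5.51 CPM (endothelial) (SD, n = 4 each), with no overlap and F highest. It differed by -0.94 on the log2 scale (edgeR adjusted p = 0.123), and DESeq2 called it lower (adjusted p = 0.0415).

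Of 19 negative regulators, 0 were called (4 at an unadjusted p under 0.05), with a median log2 fold change of -0.00. Lrig3, of the family of membrane proteins that includes the ErbB inhibitor Lrig1, had the smallest p, at 56.5 ± 7.99 CPM (endocardial) against 75.6 ± 4.56 CPM (endothelial) (SD, n = 4 each; log2 fold change -0.42, edgeR adjusted p = 0.107). The phosphatase gene Ptpn12 followed at 0.33 (adjusted p = 0.233). DESeq2 called 1 of the list lower.

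The ERK-responsive genes, named above for G and H, had 0 of 21 called (3 at an unadjusted p under 0.05) and a median of 0.15. Phlda1 had the smallest p and differed by 0.81 on the log2 scale (SE 0.26, edgeR adjusted p = 0.144), and Etv5, an ETS factor downstream of FGF signals, followed at -0.53. DESeq2 called 0 of them and limma 1.

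Among 11 tested membrane partners of HB-EGF and the receptors, 0 were called (4 at an unadjusted p under 0.05), and 9 of the 11 values were below 0, with a median of -0.35. The heparan sulfate proteoglycan genes Sdc1 and Sdc4 had the smallest p, with log2 fold changes of -0.35 and -1.32 (edgeR adjusted p = 0.128 and 0.140), and Sdc4, at 23.2 ± 5.17 CPM (endocardial) against 57.7 ± 40.3 CPM (endothelial) (SD, n = 4 each), was highest in F. DESeq2 called 2 of the list lower.

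Of 15 genes that act with neuregulin in trabeculation, 0 were called (3 at an unadjusted p under 0.05), with a median of 0.17. Dll4, the Notch ligand upstream of Nrg1 in mouse endocardium, was at 12.7 ± 5.45 CPM (endocardial) against 3.41 ± 2.17 CPM (endothelial) (SD, n = 4 each; log2 fold change 1.89, SE 0.47). Its edgeR adjusted p was 0.0704, and 0.0310 without F. Hey2, which acts downstream of Notch, followed at 0.90 (adjusted p = 0.0818). DESeq2 and limma called 2 of the list higher each.

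**Figure D5:**
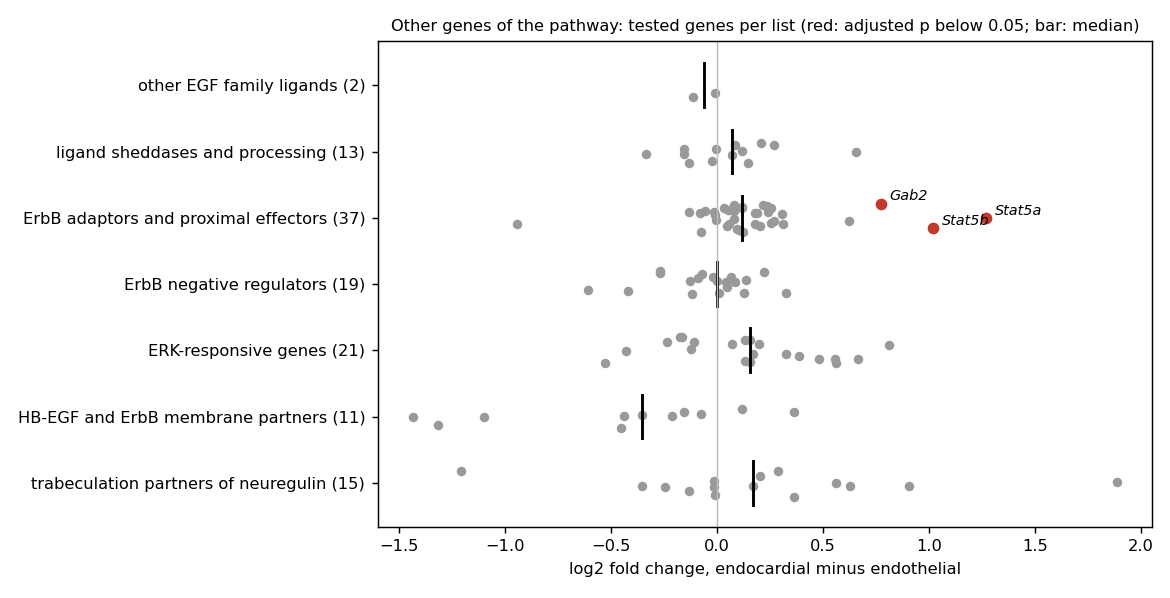
Log2 fold change (horizontal axis, endocardial minus endothelial) of the tested genes in 7 lists of the pathway, with the number tested in brackets; each dot is a gene, red where the adjusted p was below 0.05, and black bars are list medians. Only Stat5a, Stat5b and Gab2 are red, all to the right of 0, at 1.27, 1.02 and 0.77.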

How the data were processed

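RNA-seq libraries of sorted cells, made with a stranded mRNA kit per the labels' protocols, were compared between the labels' groups. The authors deposited 1 table of estimated counts, whole numbers with unequal totals and 1 row per symbol. Salmon, DESeq2 and build mm10 are named per the submitters' processing notes, and the sources used here give no versions, transcript set or filters. Salmon splits reads shared between transcripts by a model, and counts per symbol do not separate isoforms. Counts were rounded, which changed nothing, and genes were kept by filterByExpr at a minimum count of 10 and total of 15. TMM scaling and the robust quasi-likelihood test of edgeR 4.0.16 (R 4.3.3) used all 8 libraries, and genes were called at an adjusted p below 0.05. The common biological coefficient of variation was 0.239. SEs were taken from the fold change and the F statistic, as the size of the first over the root of the second. Alternatives were DESeq2 1.42.0, limma 3.58.1, other scalings and filters, a block on adjacent letters and each library left out; leaving out G and H together and the levels relative to marker sums were added after the data were seen. Libraries held 6677667 to 11369363 counts. Shares were compared by two-sided exact permutation over 70 assignments. Positions, exon lengths and sequences are from GENCODE M21 (GRCm38). Members and lists were chosen with earlier results of these data known; the text names from each list every called gene, or the 2 with the smallest p, and for each called member the 5 genes most like it, of which 1 is not reported here. Some list symbols were matched through RefSeq synonyms. Floors and intervals of counts cover counting error only.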

Additional observations from a re-analysis of the deposited data

Results flagged for a closer look

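Of 26 groups of 4 values checked (8 genes and 5 shares in each group), 8 had a library far from the other 3; chance gives about 1 in 20. Hbegf stood at 73.7 CPM in endocardial library G and at 71.4 CPM in endothelial library H. Egfr stood at 48.7 CPM in endothelial library B. Erbb3 stood at 71.9 CPM in endothelial library F. In the same library the Erbb3 share of the receptors was 36.4% and the Erbb2 share 53.3%. The Nrg1 share of the tested ligand genes was 9.18% in endocardial library G, and the Erbb4 share of the receptors was 1.59% in endocardial library E. These values are not independent, since shares reuse the gene levels.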

How the results depend on the processing

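Over the 8 other settings chosen at the start, Nrg1 kept its call and its direction, and Erbb2, Egfr, Hbegf and Nrg4 kept their direction and were not called. Erbb3 lost its call with no filter (-2.49, adjusted p = 0.108), and members called lower were then 0. Erbb4 was called by DESeq2 (-2.25) and with adjacent letters blocked (-2.08, adjusted p = 0.00866), so members called lower were 2 in each. With G and H left out together, chosen after the data were seen, neither Nrg1 (0.94, adjusted p = 0.0899) nor Erbb3 (-2.64, adjusted p = 0.114) was called, 0 members in either direction. The labels give no shared replicate numbers, so that block rests on letters alone.

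Leaving out each library gave log2 fold changes of 0.96 to 1.09 for Nrg1, -0.081 (without A) to 0.28 for Nrg4, -0.27 to 1.22 for Hbegf, -0.56 to 0.012 (without B) for Egfr, -0.40 to -0.19 for Erbb2, -2.74 to -1.68 for Erbb3 and -2.59 to -1.60 for Erbb4, with 0 to 1 members called higher and 0 to 2 lower. Counts of all calls fell to 135 of 14051 genes without E and rose to 457 without B. The share differences ran from 1.17 to 6.07 percentage points for Nrg1, -0.19 to 3.29 for Egfr, 7.81 to 15.6 for Erbb2, -15.6 to -6.64 for Erbb3 and -2.15 to -0.98 for Erbb4, and none passed the threshold, which 4 against 3 libraries cannot reach. Without length division the share differences kept their direction, at 6.36 percentage points for Nrg1, 2.51 for Egfr, 13.1 for Erbb2, -12.4 for Erbb3 and -3.22 for Erbb4.

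In the pathway lists, sheddases called higher were 1 by limma, 1 with the block and 0 to 1 without a library. Adaptors called lower were 1 by DESeq2 and 1 with the block, and called higher 2 to 3 without a library. Negative regulators called lower were 1 by DESeq2 and 1 with the block. ERK-responsive genes called higher were 1 by limma and 4 with the block, and lower 1 with the block. Membrane partners called lower were 2 by DESeq2 and 2 with the block. Trabeculation genes called higher were 2 each by DESeq2, limma and the block and 0 to 1 without a library, and lower 1 with the block. The cause of these differences was not tested.

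With the longest coding transcript as length, Nrg1 ranked 3, Egfr 4, Nrg4 5 and Erbb3 6 in the endocardial libraries, and Nrg4 ranked 5 and Erbb4 7 in the endothelial libraries. Low counts limit Nrg2, Nrg4 and Erbb4.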
